A study of Homo sapiens with 15 samples.

Results

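The shortest loops of the LNCaP HiChIP loop sets join 5 kb bins that lie side by side. They were taken as every anchor pair whose start positions lie exactly 5000 bp apart, each pair counted once, whether it was listed among the H3K27ac loops, the H3K4me3 loops or both. This gave 28409 adjacent-bin loops of 505995 different anchor pairs, or 5.61% (95% exact interval 5.55 to 5.68). The next lengths held 11754 loops of 10 kb, 24081 of 15 to 20 kb and 441751 of over 20 kb.

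LNCaP is an androgen-dependent prostate cancer cell line. Cells were kept for 3 days in phenol red-free RPMI with charcoal-stripped serum, which removes steroids, then received dihydrotestosterone (DHT) at 10 nM and were collected after 30 m and after 4, 16 and 72 h, with ethanol vehicle (EtOH) as the 0 m control. All groups share this deprivation and this 1 cell line. The labels list 10 H3K27ac samples (replicates 1 and 2 of each time point) and 5 H3K4me3 samples (1 per time point), and the 10 tables analysed hold 1 contact value per loop, mark and time point. There is therefore no replicate, no test and no p-value below: intervals are 95% exact intervals that cover counting error only, and say nothing of the spread between cultures.

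HiChIP cuts crosslinked chromatin with a restriction enzyme (here MboI, which cuts at GATC), ligates the ends that touch, and pulls down ligated fragments that carry a histone mark. H3K27ac marks active enhancers and promoters, and H3K4me3 marks mostly active promoters. A pair of neighbouring bins is the closest contact the 5 kb grid can show, so it mostly reports how a promoter or enhancer contacts the chromatin next to it, and fragments that carry more of the mark are also pulled down more often. DHT is a potent androgen, a class of steroid hormone that acts at enhancers of prostate genes such as KLK3 and TMPRSS2. Contact below is the number of read pairs in a bin pair after the TMM scaling of the depositors, which sets the 5 time points of 1 mark on a common scale; 1 read pair was worth 0.180 to 0.294 units in the H3K27ac tables and 0.0792 to 0.342 units in the H3K4me3 tables. Marks were scaled apart, so levels are compared within a mark. Below, 5 contacts in a row follow the time points in order from 0 m to 72 h, and 4 log2 changes in a row are the later time points, in order, against 0 m.

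The promoters that carry the largest values described below are shown first, as the 250 bases that precede the start of transcription (build GRCh37, canonical transcripts of Gencode release 44, read 5′ to 3′ on the strand of the gene). Capitals mark GATC, the MboI site. Of 19894 protein-coding promoters of this length, 34.1% held a GATC. PHF12 and DVL2 are shown for the most read pairs of H3K27ac and H3K4me3 among promoter loops, SLC25A29 for the highest H3K27ac change at 16 h, IFIT3 and IFIT2 for being among the highest H3K27ac changes at 72 h, and NUDT2 for being among the lowest H3K4me3 changes at 72 h. The promoters of TMPRSS2 and OASL, which rank among the highest changes too, are not shown. Their positions were chr17:27278537-27278786 (minus strand), chr17:7137837-7138086 (minus), chr14:100772782-100773031 (minus), chr10:91087504-91087753 (plus), chr10:91061553-91061802 (plus), and chr9:34329317-34329566 (plus).
PHF12: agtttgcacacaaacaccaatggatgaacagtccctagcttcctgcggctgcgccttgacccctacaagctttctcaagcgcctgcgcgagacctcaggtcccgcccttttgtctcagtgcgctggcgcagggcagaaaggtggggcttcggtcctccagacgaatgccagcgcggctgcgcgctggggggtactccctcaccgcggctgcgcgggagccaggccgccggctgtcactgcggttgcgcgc
DVL2: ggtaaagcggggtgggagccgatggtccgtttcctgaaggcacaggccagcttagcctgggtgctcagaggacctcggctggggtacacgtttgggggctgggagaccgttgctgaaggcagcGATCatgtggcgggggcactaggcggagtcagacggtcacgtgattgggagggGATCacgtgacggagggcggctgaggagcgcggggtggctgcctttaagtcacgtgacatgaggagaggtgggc
SLC25A29: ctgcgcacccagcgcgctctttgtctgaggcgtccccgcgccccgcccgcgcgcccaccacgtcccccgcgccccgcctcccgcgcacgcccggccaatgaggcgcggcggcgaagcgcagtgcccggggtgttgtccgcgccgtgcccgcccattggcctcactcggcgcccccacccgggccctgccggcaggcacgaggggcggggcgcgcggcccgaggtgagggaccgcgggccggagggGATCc
IFIT3: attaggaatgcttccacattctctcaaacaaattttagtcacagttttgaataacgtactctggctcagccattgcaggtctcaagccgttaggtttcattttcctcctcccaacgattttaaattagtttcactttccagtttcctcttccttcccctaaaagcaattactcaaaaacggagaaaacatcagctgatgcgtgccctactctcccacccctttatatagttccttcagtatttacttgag
IFIT2: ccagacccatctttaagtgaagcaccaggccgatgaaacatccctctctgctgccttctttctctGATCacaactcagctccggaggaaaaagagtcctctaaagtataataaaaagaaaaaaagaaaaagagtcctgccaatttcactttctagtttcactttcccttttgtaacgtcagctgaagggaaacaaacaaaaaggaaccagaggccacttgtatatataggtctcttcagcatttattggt
NUDT2: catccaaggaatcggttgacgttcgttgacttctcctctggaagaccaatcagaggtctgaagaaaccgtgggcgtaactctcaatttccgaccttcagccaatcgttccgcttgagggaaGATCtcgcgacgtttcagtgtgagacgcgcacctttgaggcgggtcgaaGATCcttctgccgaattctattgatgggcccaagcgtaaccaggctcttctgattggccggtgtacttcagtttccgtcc

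The full palindrome of the androgen response element, AGAACA and TGTTCT with any 3 bases between them, was in none of the 19894 promoter windows of this length and in 58 of the 28409 adjacent bin pairs, or 0.204%. Loops of 10 kb held it in 0.247%. The 5 such sites in the bin pairs with the most H3K27ac read pairs, all in introns, are shown with 8 bases on each side and the fixed letters in capitals. They lie at chr20:42831755-42831785 (nearest start OSER1, 7648 bp away), chr6:33293664-33293694 (DAXX, 2936 bp), chr19:1111254-1111284 (GPX4, 7269 bp), chr19:3375927-3375957 (NFIC, 9354 bp) and chr18:55953144-55953174 (NEDD4L, 241694 bp).
OSER1: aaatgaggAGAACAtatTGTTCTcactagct
DAXX: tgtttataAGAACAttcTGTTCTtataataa
GPX4: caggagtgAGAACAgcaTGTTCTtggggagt
NFIC: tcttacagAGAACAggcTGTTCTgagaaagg
NEDD4L: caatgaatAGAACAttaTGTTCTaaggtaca

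The loop at the OSER1 site had an H3K27ac contact of 32.6, 41.2, 35.5, 79.4 and 62.9, highest at 16 h. The one at the GPX4 site had 31.7, 47.3, 42.5, 31.6 and 22.4, highest at 30 m. Over all 58 bin pairs with the full palindrome the mean H3K27ac contact was 7.93 at 0 m and 10.6 at 16 h, a log2 change of 0.42 (0.33 to 0.51), against 0.69 (0.68 to 0.69) over the 28351 without it. At 4 h the order was the other way, 0.35 (0.26 to 0.44) with the palindrome and 0.26 without, and at 30 m and 72 h the changes were 0.22 and 0.25 with it and 0.29 and 0.50 without. The letters of the forkhead motif TGTTTAC, either strand, were in 77.1% of adjacent bin pairs and in 77.0% of the bin pairs of 10 kb loops. Adjacent bin pairs held a mean of 27.2 GATC and a GC content of 44.3%, and 10 kb loops 27.8 GATC and 44.8%.

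Most adjacent-bin loops were H3K27ac loops away from promoters. Of the 28409, 19172 (67.5%) were in the H3K27ac set only, 4851 (17.1%) in the H3K4me3 set only and 4386 (15.4%) in both. Adjacent-bin loops were 7.95% of H3K27ac loops and 3.32% of H3K4me3 loops. A promoter was taken to reach 2.5 kb upstream and downstream of a protein-coding start, and an anchor as the central 1 kb of its bin. On this rule 19846 loops (69.9%, 69.3 to 70.4) had no promoter at either anchor (other-other) and 6215 (21.9%) had 1 promoter anchor (promoter-other). In 1582 (5.57%) both anchors held the promoter of the same single gene (same-gene). In 766 (2.70%) both anchors held a promoter and more than 1 gene was involved (different-gene). Of these 766, 502 had more than 1 start at an anchor. Both anchors of such a loop can share a start, as in the same-gene class, and how many do was not counted. The same-gene class exists because a start near the border of 2 bins falls within 2.5 kb of both anchors, which no longer loop allows; it is a geometric class, and with the whole bins as anchors it held 16.6% of members while promoter-other held 10.6%.

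A promoter was at 30.1% of adjacent-bin loops, 39.5% of 10 kb loops, 44.7% of 15 to 20 kb loops and 64.2% of longer loops. The share depended on the set: other-other loops were 86.3% of those in the H3K27ac set only, 33.5% of those in the H3K4me3 set only and 38.0% of those in both. Read from the genes, 16266 of 19894 protein-coding starts had some loop, and 9300 (46.7%) had an adjacent-bin loop. Across the autosomes and X, the share of loops that joined adjacent bins ran from 4.00% on chromosome 19 to 8.24% on X.

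Outside promoters, the anchors of other-other loops were 45.9% intergenic, 45.3% intronic, 7.21% in coding exons and 1.58% in untranslated exons. Both anchors lay in 1 gene in 52.2% of these loops, and the median distance to the nearest protein-coding start was 52.9 kb, close to the 50.6 kb of 10 kb loops. At the anchors of adjacent-bin loops the median number of loops was 4, against 7 for 10 kb loops and 14 for loops over 20 kb. An anchor can hold many longer loops but has only a neighbouring bin on either side. Anchors with many loops therefore weigh more among the longer loops, and the contrast is in part set by this way of counting. For 713 members (2.51%) no other loop touched either anchor, and their mean H3K27ac contact at 0 m was 1.77 against 7.80 for the rest.

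Within 1 mark no loop lay beside another on the 5 kb grid, as the merging of neighbouring interactions by the loop caller leaves it, so these loops do not form chains within a set. The 1625 cases in which 2 adjacent-bin loops followed each other each paired an H3K27ac-only loop with an H3K4me3-only loop, and the longest run was 3 loops, seen 44 times. A loop of the H3K27ac set lay next to 40.9% of the H3K4me3-only members (39.5 to 42.3), and a loop of the H3K4me3 set next to 11.8% of the H3K27ac-only members (11.3 to 12.2).

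The loop partner of a promoter lay mostly inside the gene. Of the 5676 promoter-other members whose promoter anchor held starts of 1 strand only, 3678 (64.8%, 63.5 to 66.0) had the other anchor downstream of the start, and in 3446 of these 3678 (93.7%) it lay within that gene. The direction depended on the mark. Among H3K27ac-only members 50.4% (48.3 to 52.5) pointed downstream, against 74.2% (72.2 to 76.2) of the H3K4me3-only members and 73.9% (71.7 to 76.1) of those in both sets. In loops of 10 kb the downstream share was 57.6% (56.0 to 59.2), below that of the adjacent-bin loops. By set, H3K27ac-only loops of 10 kb pointed downstream in 53.3% (50.6 to 55.9), above the 50.4% of adjacent bins with overlapping intervals, H3K4me3-only loops in 60.3% and loops in both sets in 59.5%.

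Adjacent-bin loops took a far larger share of the reads than of the loops. Of the H3K27ac read pairs they held 29.9%, 34.2%, 34.2%, 40.5% and 37.6% in time order. Of the H3K4me3 read pairs they held 26.8%, 28.0%, 28.9%, 29.2% and 24.3%, while 10 kb loops held at most 7.91% in each of the 10 tables. The H3K27ac share was thus highest at 16 h and the H3K4me3 share lowest at 72 h. All loops of a table summed to 2153262 to 4308555 read pairs except in H3K4me3 at 4 h, which held 10675614. At this depth the median member had 16 to 29 read pairs in the H3K27ac tables and 5 to 23 in the H3K4me3 tables.

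Mean H3K27ac contact of the adjacent-bin loops was 7.65, 9.33, 9.18, 12.3 and 10.8, highest at 16 h. The log2 change of this mean from 0 m was 0.29, 0.26, 0.69 (0.68 to 0.69) and 0.50, and the median change over members with at least 50 read pairs was 0.19, 0.28, 0.36 and 0.29. Mean H3K4me3 contact was 6.83, 7.25, 8.61, 8.17 and 5.67, a log2 change of 0.09, 0.33, 0.26 and −0.27 (−0.28 to −0.27), with medians of 0.035, 0.19, 0.25 and −0.22. Both marks were above 0 m at 16 h, and at 72 h H3K27ac was above it and H3K4me3 below. The scaling of the depositors moved the sum of all loops by 0.09, 0.07, 0.25 and 0.17 in H3K27ac and by 0.02, 0.22, 0.14 and −0.13 in H3K4me3. Relative to equal totals the changes of the members were 0.19, 0.20, 0.44 and 0.33 in H3K27ac and 0.06, 0.11, 0.12 and −0.14 in H3K4me3.

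Under the deposited scaling the shortest of the 10 lengths from 5 to 50 kb had the largest change, in either direction, at each time in both marks. With equal totals this held in H3K27ac at each time and in H3K4me3 at 72 h, but in H3K4me3 at 30 m, 4 h and 16 h the 15 kb loops moved farther the other way, at −0.08, −0.115 and −0.14. For H3K27ac at 16 h the log2 change was 0.69 at 5 kb, 0.19 at 10 kb, 0.15 at 15 kb, 0.13 at 20 kb and 0.01 at 50 kb. The change at 5 kb exceeded that at 10 kb by 0.09, 0.12, 0.50 (0.49 to 0.50) and 0.35 (0.34 to 0.36), a difference that no scaling of whole tables can move. For H3K4me3 the differences were 0.10, 0.20, 0.18 and −0.08 (−0.09 to −0.06). As medians over single loops the step was smaller in H3K27ac at 30 m, 16 h and 72 h. The 10 kb loops had medians of 0.18, 0.15, 0.08 and 0.10 in H3K27ac, against 0.19, 0.28, 0.36 and 0.29 for the members, and −0.006, 0.12, 0.07 and −0.20 in H3K4me3, against 0.035, 0.19, 0.25 and −0.22. With equal totals the 10 kb loops turned from 0.19 to −0.06 in H3K27ac at 16 h and from 0.15 to −0.02 at 72 h, and from 0.14 to −0.09 in H3K4me3 at 4 h and from 0.08 to −0.06 at 16 h, while the adjacent-bin loops kept their sign at each time point. Loops with and without a promoter showed a step between the lengths. Other-other loops of 5 kb exceeded those of 10 kb by 0.54 (0.52 to 0.55) in H3K27ac at 16 h, and promoter-other loops by 0.51 (0.49 to 0.52). At 30 m, 4 h and 72 h the H3K27ac differences were 0.16, 0.13 and 0.39 in other-other and 0.08, 0.09 and 0.35 in promoter-other loops.

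**Figure D1:**
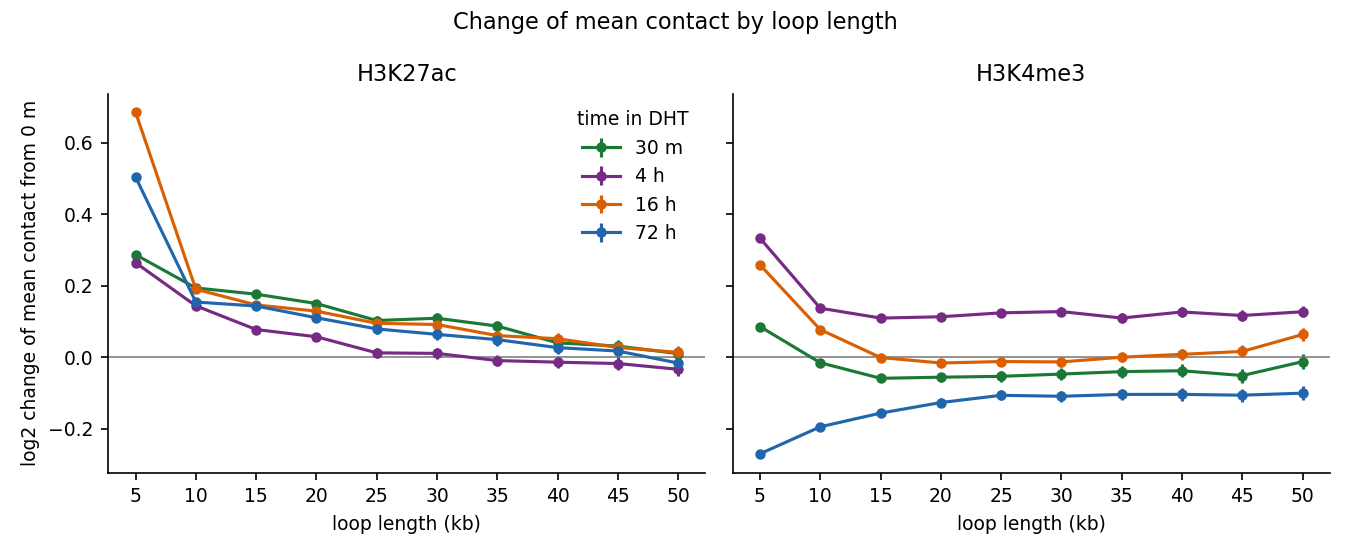
The log2 change of mean contact from 0 m (vertical axis) is plotted against loop length in kb (horizontal axis) for 4 times in DHT, H3K27ac on the left and H3K4me3 on the right; bars are 95% counting intervals, mostly smaller than the points. In H3K27ac the 16 h line falls from 0.69 at 5 kb to 0.19 at 10 kb and then declines slowly, and in H3K4me3 the 72 h line is lowest, −0.27, at 5 kb.

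By anchor class, H3K27ac contact at 0 m was 6.57 in other-other, 10.4 in promoter-other, 6.71 in same-gene and 15.1 in different-gene loops. In H3K4me3 the classes stood much further apart, at 2.20, 16.8, 13.4 and 32.4, so that different-gene loops had 14.8 times the contact of other-other loops. At the later time points that ratio was 16.1, 16.6, 13.2 and 10.9, lowest at 72 h. The corresponding H3K27ac ratio was 2.30, 3.06, 2.19, 2.13 and 2.25, highest at 30 m.

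The classes also differed in their changes. At 30 m the H3K27ac change was 0.46 in promoter-other loops and 0.14 in other-other loops, a difference of 0.32 (0.31 to 0.33), and it was 0.54 in same-gene and 0.55 in different-gene loops. At 4 h the order was the other way round, 0.22 against 0.30. At 16 h the 4 classes lay between 0.55 (different genes) and 0.76 (promoter-other), with other-other at 0.66, and at 72 h between 0.43 and 0.60. In H3K4me3 the promoter-other change was 0.15, 0.42, 0.27 and −0.32 and the other-other change −0.09, 0.07, 0.31 and −0.04. Different-gene loops were lowest at 72 h, −0.48 (−0.49 to −0.46), and 0.44 below other-other loops. With equal totals the other-other change in H3K4me3 turned to −0.15 at 4 h and to 0.09 at 72 h.

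**Figure D2:**
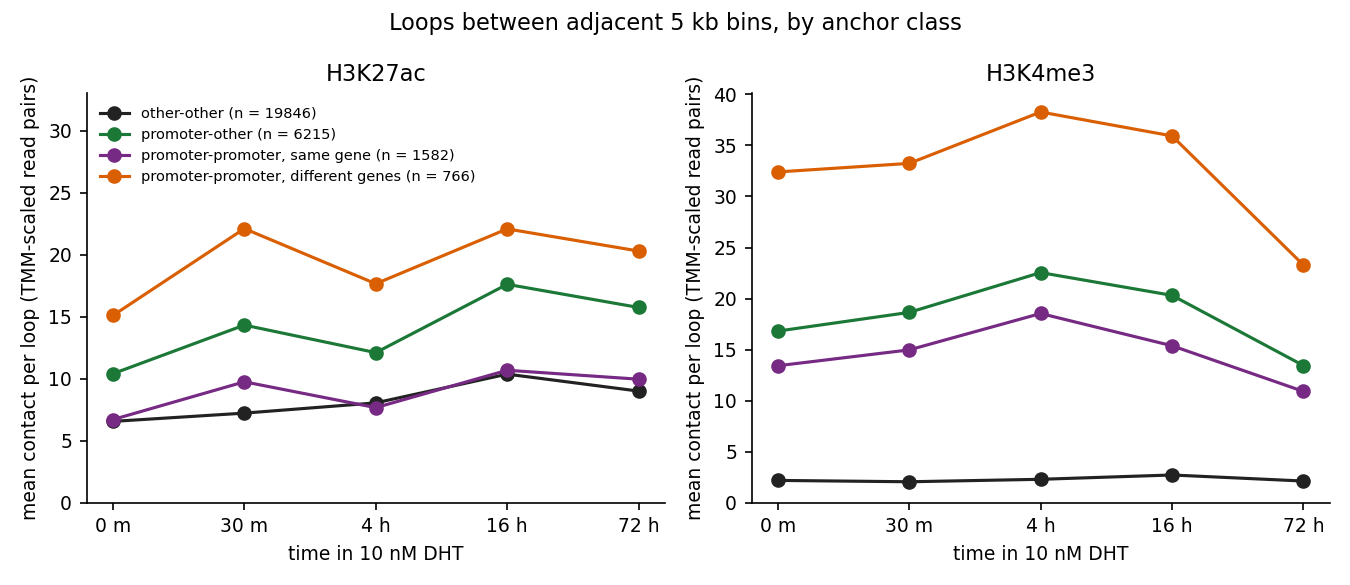
Mean contact per loop in TMM-scaled read pairs (vertical axis, from 0) is plotted against time in 10 nM DHT (horizontal axis, time points evenly spaced) for the 4 anchor classes of adjacent-bin loops, H3K27ac on the left and H3K4me3 on the right. Different-gene loops are highest in both marks, and the 3 promoter classes are lowest at 72 h in H3K4me3 while other-other loops lie between 2.06 and 2.73 at every time.

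GC content moved with these differences. When adjacent bin pairs were put into 5 classes by GC content, with medians from 36.98% to 53.41%, the share with a promoter went from 5.54% to 54.0%. From the lowest to the highest class the H3K27ac change at 30 m was −0.32, 0.03, 0.26, 0.43 and 0.51, and the H3K4me3 change at 72 h was 0.14, −0.04, −0.16, −0.24 and −0.44. Within other-other loops alone the same classes ran from −0.33 to 0.43 in H3K27ac at 30 m and from 0.27 to −0.29 in H3K4me3 at 72 h. Within promoter-other loops they ran from −0.10 to 0.55 and from −0.16 to −0.44. At 16 h in H3K27ac the classes lay closer, at 0.53, 0.69, 0.75, 0.80 and 0.62. The part of GC content in the class differences was not tested beyond these values.

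**Figure D3:**
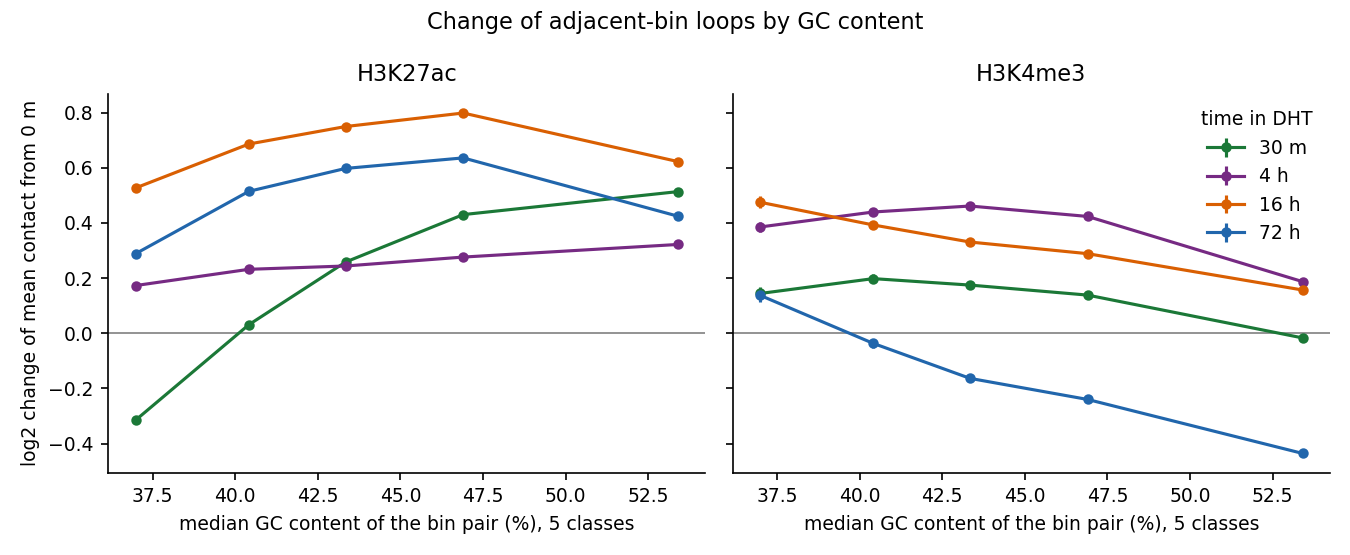
The log2 change of mean contact from 0 m (vertical axis) is plotted against the median GC content (%) of 5 classes of adjacent bin pairs (horizontal axis) for 4 times in DHT, H3K27ac on the left and H3K4me3 on the right, with 95% counting intervals. The 30 m line of H3K27ac climbs from −0.32 to 0.51 and the 72 h line of H3K4me3 descends from 0.14 to −0.44.

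Distance to a gene start also graded the other-other loops. In H3K27ac the 0 m contact was 9.35 in the 1917 loops within 10 kb of a protein-coding start, 7.29 in the 7654 at 10 to 50 kb and 5.51 in the 10275 farther away, and the 16 h change was 0.73, 0.70 and 0.60. In H3K4me3 the 0 m contact was 5.04, 2.62 and 1.35, and the 72 h change was −0.29, −0.10 and 0.19. Downstream and upstream promoter loops differed at 16 h in H3K27ac, where the change was 0.83 (0.82 to 0.84) for a partner on the gene side and 0.63 (0.62 to 0.64) for a partner upstream, although both started from a contact of 10.1 at 0 m. At 72 h in H3K4me3 both sides had a change of −0.31.

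The H3K27ac change of adjacent-bin loops went with their contact at the other time points in DHT. Each loop was ranked by its mean contact at the 3 time points other than 0 m and the one compared. For a late change these include the other late value. All ranking values follow DHT, so a loop that rose and stayed high is ranked stronger for that reason. The order of the classes is therefore in part set by the ranking. From the weakest to the strongest of 5 classes the H3K27ac change at 16 h was −0.17, 0.03, 0.26, 0.54 and 0.95, and at 72 h −0.03, 0.07, 0.21, 0.39 and 0.70. In 10 kb loops put into classes by the same limits the 16 h values were −0.29, −0.05, 0.16, 0.30 and 0.52, lower in each class. Contact was not matched within a class. The strongest class has no upper limit, and its mean contact at 16 h was 39.0 in 5 kb loops and 26.3 in 10 kb loops. Ranked by 30 m and 4 h alone, a choice made after seeing the data, the 16 h changes of the adjacent-bin loops were −0.007, 0.16, 0.35, 0.56 and 0.91, and the 72 h change of the weakest class was 0.12. In H3K4me3 the order ran the other way, with 72 h changes of 0.44, 0.29, 0.11, −0.19 and −0.37 from the weakest to the strongest class. The 2841 strongest loops (10%) of each table held 37.3% of the member read pairs at 0 m and 47.3% at 16 h in H3K27ac, and 49.3 to 56.9% in H3K4me3. The 713 members without another loop at their anchors had a 16 h change of −0.13 (−0.19 to −0.08) in H3K27ac.

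**Figure D4:**
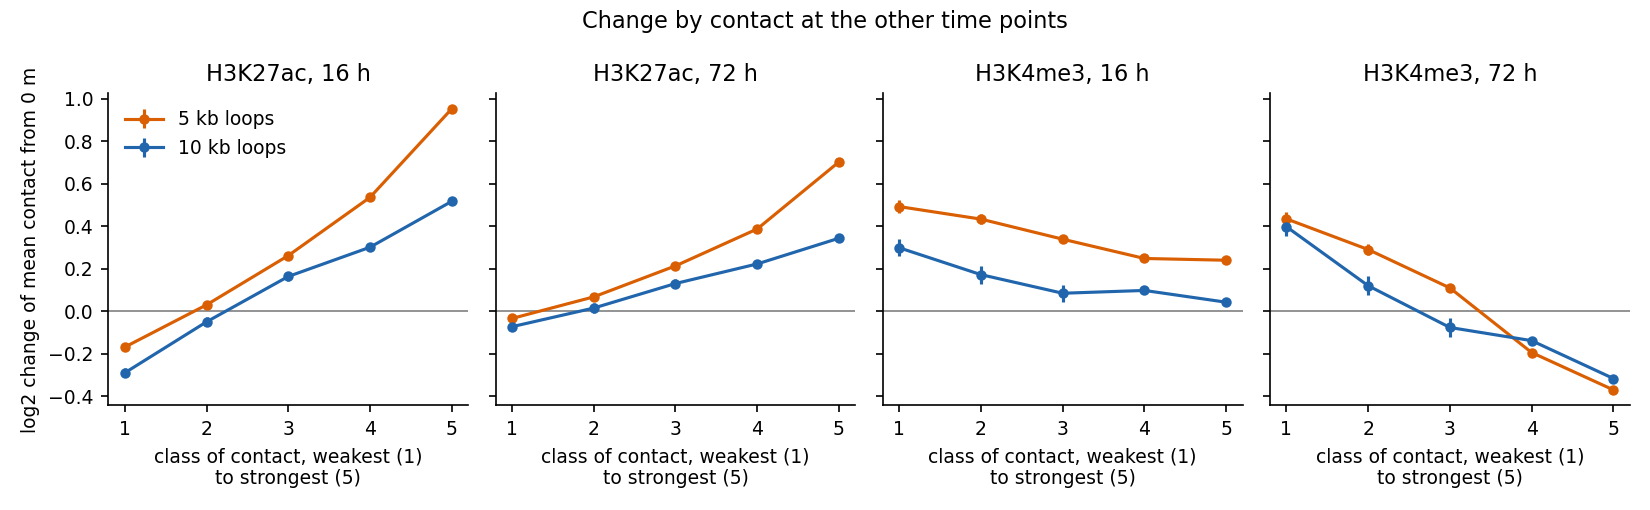
The log2 change of mean contact from 0 m (vertical axis) is plotted for 5 classes of contact at the other time points (horizontal axis, 1 weakest, 5 strongest) for 5 kb and 10 kb loops, with 95% counting intervals; the 4 panels are H3K27ac at 16 h and 72 h and H3K4me3 at 16 h and 72 h. In H3K27ac the 5 kb line lies above the 10 kb line in every class, and in H3K4me3 at 72 h both lines slope down, from 0.44 to −0.37 for 5 kb loops and from 0.40 to −0.32 for 10 kb loops.

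Single loops were read against a fold of 2. A loop was counted as called when its contact differed at least 2-fold from 0 m, with 0.5 read pairs added to both, among loops with at least 50 read pairs over the 5 time points of the mark. This left 24674 members in H3K27ac and 14842 in H3K4me3. The background is all loops tested, 72724 in H3K27ac and 92361 in H3K4me3, and includes these members. Differences from it are therefore smaller than from the remaining loops. In H3K27ac 1858 members (7.53%) were called higher at 30 m against 9.41% of all loops tested, 2101 (8.52%) at 4 h against 6.38%, 5265 (21.3%) at 16 h against 16.4%, and 4098 (16.6%) at 72 h against 14.0%. Lower calls in H3K27ac were 1044 (4.23%) at 30 m against 6.31%, 138 (0.559%) at 4 h against 3.42%, 1525 (6.18%) at 16 h against 6.58% and 1260 (5.11%) at 72 h against 7.25%. The share called higher thus stood above the background from 4 h on, and the lower share below it at all 4 times. With equal totals per table the balance moved, and higher calls were 1306 (5.29%, against 7.16% of all loops) at 30 m, 1705 (6.91% against 5.18%) at 4 h, 3349 (13.6% against 10.1%) at 16 h and 2914 (11.8% against 10.2%) at 72 h. Lower calls were then 1342 (5.44% against 7.70%), 176 (0.713% against 4.16%), 2480 (10.1% against 11.1%) and 1863 (7.55% against 10.3%).

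In H3K4me3 489 members (3.29%) were called higher at 30 m against 6.95% of all loops, 1263 (8.51%) at 4 h against 9.56%, 1025 (6.91%) at 16 h against 7.04% and 628 (4.23%) at 72 h against 5.57%. Lower calls were 911 (6.14%) against 6.79% at 30 m, 560 (3.77%) against 2.75% at 4 h, 128 (0.862%) against 3.33% at 16 h and 730 (4.92%) against 7.84% at 72 h. Under this rule H3K4me3 calls of the members were below the background in both directions, except for lower calls at 4 h and higher calls at 16 h. The latter were near it, at 6.91% (6.50 to 7.33) against 7.04%. Where the counting interval of the fold also had to leave out 1, the members stood above the background for higher calls at 4 h (6.94% against 6.25%) and 16 h (3.32% against 2.55%). They also did so for lower calls at 30 m (1.61% against 1.40%) and 4 h (2.95% against 1.92%). With equal totals the balance turned at 4 h and 72 h. Higher calls were then 429 (2.89%, against 6.20% of all loops) at 30 m, 672 (4.53% against 5.51%) at 4 h, 737 (4.97% against 5.05%) at 16 h and 808 (5.44% against 7.14%) at 72 h, and lower calls were 924 (6.23% against 6.89%), 1115 (7.51% against 5.88%), 201 (1.35% against 5.10%) and 490 (3.30% against 5.97%). The counting error of a fold is larger where contact is lower, and 10 kb loops had a mean H3K27ac contact of 4.51 at 0 m against 7.65 for the members; the part of this in the shares was not tested. By class, the H3K27ac share called higher at 16 h was 21.0% of other-other, 23.0% of promoter-other, 22.2% of same-gene and 15.8% of different-gene loops, and 10.5% of 10 kb loops. At 30 m it was 5.75%, 10.4%, 17.1% and 10.2% in the same order of classes. At 72 h 0.264% of different-gene loops were called higher in H3K4me3 and 3.04% lower.

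The promoter loops with the most H3K27ac read pairs included the 4 that follow. PHF12, a subunit of SIN3 histone deacetylase complexes, had a contact of 217, 287, 211, 504 and 376 at the 5 times, from an intronic anchor at chr17:27272001-27273000 to one in a coding exon at chr17:27277001-27278000. TNRC18 had 140, 282, 144, 535 and 475, a 16 h change of 1.94 (1.79 to 2.08). SETD1B, an H3K4 methyltransferase, had 147, 201, 149, 351 and 294. All 3 stood at 16 h and 72 h above their 3 earlier values. BAHCC1, which reads H3K27 methylation, had 110, 180, 114, 320 and 290. In H3K4me3 the 72 h value was the lowest of the 5 for each of these 4 loops, for instance 70.6 for PHF12 against 102 at 0 m.

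In H3K4me3 the loop with the most read pairs joined the promoters of DVL2, a signal carrier of the Wnt pathway, and PHF23. Its H3K4me3 contact was 174, 174, 228, 151 and 86.6, and its H3K27ac contact 106, 188, 119, 287 and 231. TXNIP, the thioredoxin inhibitor, had an H3K4me3 contact of 133, 184, 197, 179 and 116 and an H3K27ac contact of 51.4, 46.4, 54.5, 161 and 239. At both loops H3K27ac was higher at 72 h than at 0 m and H3K4me3 lower, with changes at DVL2 of 1.12 (0.94 to 1.30) and −1.01 (−1.21 to −0.81). HDGF, a heparin-binding growth factor, had 134, 147, 214, 160 and 81.6 in H3K4me3. The loop of RXRB, the retinoid X receptor beta, with the zinc transporter gene SLC39A7 and HSD17B8 had 146, 169, 158, 211 and 100.05. TUSC2 had 150, 147, 166, 168 and 96.2. As in the H3K27ac group, 72 h was the lowest value of each.

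In H3K27ac at 16 h a loop without a promoter was the strongest. The highest H3K27ac contact of any member, 679 at 16 h, was at chr12:115112001-115113000 and chr12:115117001-115118000, both in coding exons of TBX3, a T-box transcription factor, and 3980 bp or more from its start. Its values were 192, 316, 225, 679 and 597 in H3K27ac and 88.8, 113, 141, 158 and 87.7 in H3K4me3. A loop within introns of NFIX, at chr19:13127001-13128000, had 199, 301, 216, 456 and 345 in H3K27ac, and an intergenic one at chr22:46457001-46458000 had 190, 232, 201, 409.96 and 409.97. The strongest such loop in H3K4me3 lay within GATA2, at chr3:128202001-128203000, with 129, 166, 145, 185 and 102.

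Of 28 genes that androgen is known to induce, 23 had an adjacent-bin loop, 25 loops in all, where 46.7% of all protein-coding starts had one. At 16 h in H3K27ac 8 of the 23 that passed the read pair minimum were called higher and 0 lower, a median change of 0.85. Over the 7653 promoter loops that passed, 22.2% were called higher and 5.07% lower, with a median of 0.42. In H3K4me3 7 of 24 were called higher and 0 lower, with a median of 0.82, against 3.17% and 0.214% of 7950 promoter loops and a median of 0.24. By 72 h the medians were 0.44 in H3K27ac and −0.16 in H3K4me3, against 0.39 and −0.29. At 30 m, 4 h and 72 h in H3K27ac 0, 1 and 5 of the 23 were called higher and 0, 0 and 1 lower. The shares over all promoter loops were 11.5%, 5.00% and 18.2% higher and 1.01%, 0.470% and 3.72% lower. In H3K4me3 0, 4 and 1 of the 24 were called higher and 0, 0 and 1 lower. There the shares were 1.81%, 10.4% and 1.57% higher and 1.36%, 1.43% and 2.97% lower.

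TMPRSS2, a membrane serine protease, had an H3K4me3 contact of 24.0, 30.1, 30.8, 113 and 27.2, and an H3K27ac contact of 34.4, 48.8, 50.2, 54.1 and 51.6. Its H3K4me3 value stood out at 16 h alone, at a change of 2.23 (1.90 to 2.58), and both anchors lay in introns of the gene. KLK3, which encodes prostate-specific antigen, had an H3K4me3 contact of 11.6, 11.3, 14.6, 53.7 and 15.9 from its start to an intron, the same single high value at 16 h. H3K27ac at this KLK3 loop was 31.7, 27.9, 57.3, 29.7 and 13.4, highest at 4 h. UAP1, of amino sugar metabolism, had an H3K27ac contact of 59.1, 41.6, 68.6, 132 and 85.0. This loop was highest at 16 h and closer to the 0 m value at 72 h.

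**Figure D5:**
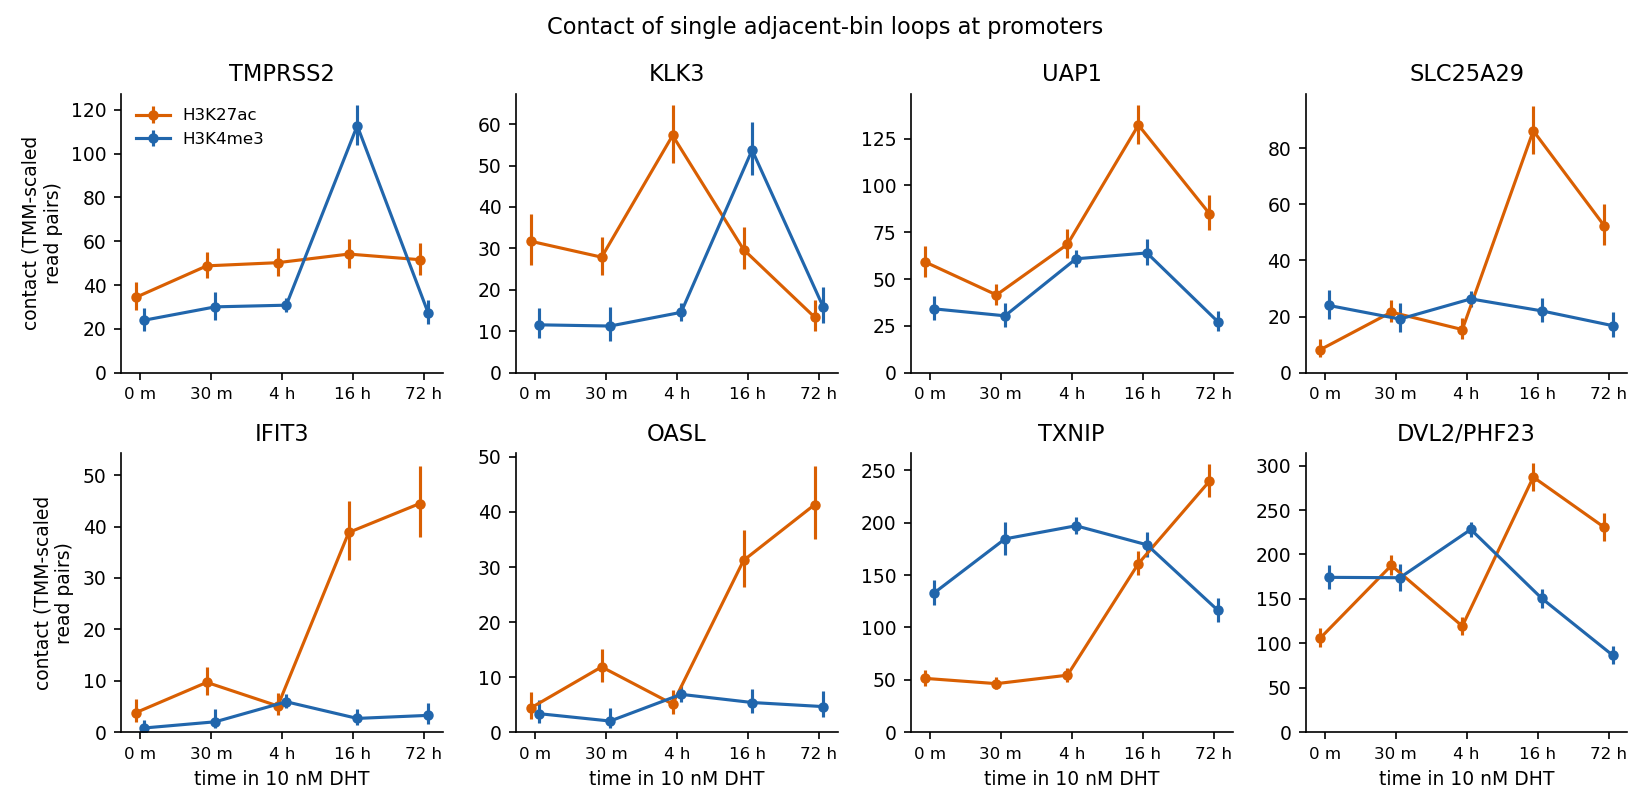
Contact in TMM-scaled read pairs (vertical axes, from 0) of 8 single adjacent-bin loops is plotted against time in 10 nM DHT (horizontal axes, evenly spaced) for H3K27ac and H3K4me3, with 95% counting intervals. TMPRSS2 and KLK3 are highest in H3K4me3 at 16 h (113 and 53.7), IFIT3 and OASL are highest in H3K27ac at 72 h (44.5 and 41.3), SLC25A29 is highest in H3K27ac at 16 h (86.2), and at TXNIP and DVL2/PHF23 the 72 h value is above 0 m in H3K27ac and below it in H3K4me3.

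Of 5 genes that androgen is known to repress, 3 had an adjacent-bin loop. In H3K27ac 1, 0, 1 and 1 of these 3 loops were called higher at the 4 later times and 0, 0, 1 and 0 lower. Of all promoter loops 11.5%, 5.00%, 22.2% and 18.2% were called higher and 1.01%, 0.470%, 5.07% and 3.72% lower. The median changes of the 3 were −0.80, −0.21, −0.13 and −0.37. Their range at 16 h was from −1.25 to 1.99, so the 3 did not move one way. Some genes stand in more than 1 of these lists, and their loops count in each.

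Luminal transcription factors had some of the highest contacts of any list. Of 10 genes 9 had such loops, 11 in all, with a mean H3K27ac contact of 49.0 at 0 m and 89.9 at 16 h; 5 of 11 were called higher and 0 lower at 16 h, against 22.2% and 5.07% of all promoter loops. GATA2 had 81.4, 129, 99.4, 193 and 171, from an intron to the first exon. FOXA1, a pioneer factor that opens chromatin, had 61.4, 78.6, 47.7, 169 and 176 in a loop whose other anchor was the promoter of TTC6. HOXB13, with the neighbouring PRAC1 and PRAC2, had 123, 158, 122, 169 and 178, and CREB3L4 had 28.2, 44.3, 45.1, 46.9 and 38.9 in a loop with JTB. GATA2, FOXA1 and HOXB13 stood at 16 h and 72 h above all their earlier values.

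Markers of the luminal prostate cell, a check of the labelled cell type, had adjacent-bin loops at 9 of 10 genes. The adhesion gene CDH1 had an H3K27ac contact of 117, 168, 116, 305 and 229. FOLH1, which encodes prostate-specific membrane antigen, had 108, 73.1, 94.9, 215 and 130, and the keratin gene KRT18 had 34.7, 43.5, 41.0, 52.4 and 50.8. Among 20 annotated markers of basal, neuroendocrine, immune, stromal, endothelial, liver and heart cells, 3 (CDH5, CD3E and INSM1) had an adjacent-bin loop, with H3K27ac contacts of at most 5.98, 4.91 and 1.58 at any time.

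Immediate early genes, which respond to many stimuli within minutes, had loops at 9 of 16 genes. In H3K27ac 1, 0, 3 and 5 of these 9 were called higher at the 4 later times and 0 lower at each. Of all promoter loops 11.5%, 5.00%, 22.2% and 18.2% were called higher and 1.01%, 0.470%, 5.07% and 3.72% lower. The median changes were 0.47, 0.16, 0.75 and 1.01, against 0.41, 0.23, 0.42 and 0.39. ZFP36, which promotes mRNA decay, had an H3K27ac contact of 54.95, 107, 69.2, 130 and 138. DUSP1, a phosphatase of MAP kinases, had 33.2, 45.9, 37.2, 88.7 and 76.1, and the Krüppel-like factor gene KLF10 had 7.35, 15.5, 9.19, 20.2 and 14.999. These 3 loops were at least 2-fold above 0 m at 72 h. IER3, in a loop with FLOT1, had 17.9, 25.01, 19.9, 25.3 and 20.5. In H3K4me3 0, 1, 0 and 0 of the 9 were called higher and 0 lower, against 1.81%, 10.4%, 3.17% and 1.57% of all promoter loops higher and 1.36%, 1.43%, 0.214% and 2.97% lower, and the 72 h median was −0.33.

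Cytosolic ribosomal protein genes had 74 loops at 63 of 77 genes. At 16 h 6 of the 74 were called higher in H3K27ac and 2 lower, a median of 0.32, against 22.2%, 5.07% and 0.42 over all promoter loops. At 72 h in H3K4me3 0 were called higher and 3 lower, a median of −0.37, against 1.57%, 2.97% and −0.29. RPL23A, in a loop with RAB34 and TLCD1, had an H3K4me3 contact of 80.1, 85.4, 120, 112 and 50.9. RPS2, in a loop with NDUFB10 and RNF151, had 132, 140, 145, 141 and 72.6, RPL27A 77.3, 91.9, 127, 115 and 59.9, and RPS15 66.0, 82.7, 126, 89.7 and 44.3. In each of the 4 the 72 h value was the lowest. Replication-dependent histone genes had 19 loops at 39 of 64 genes, since clustered genes share anchors, and in H3K27ac their mean contact was 17.7 at 0 m, 24.9 at 16 h and 30.2 at 72 h, log2 changes of 0.49 and 0.77 against 0.72 and 0.57 over all promoter loops. Of the 19 loops 1 was called higher and 1 lower at 16 h, and 4 were called higher and 0 lower at 72 h, against 18.2% and 3.72% of all promoter loops at 72 h. The H2BC4 and H2AC6 loop had 40.5, 51.1, 35.5, 91.3 and 112, and the H2AC7 and H4C5 loop 37.3, 34.0, 33.3, 67.3 and 75.5.

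The promoter loops with the highest and lowest changes, among those with at least 200 read pairs, are given as a description, since their changes chose them. In H3K27ac at 16 h the highest was SLC25A29, a mitochondrial carrier of basic amino acids, with 8.23, 21.6, 15.4, 86.2 and 52.4. IFIT3 had 3.82, 9.72, 5.13, 38.9 and 44.5, and its neighbour IFIT2 had 3.53, 7.38, 4.91, 29.9 and 37.9. Both encode interferon-induced antiviral proteins, and their promoters are among those shown above. NOCT, nocturnin of the circadian clock, had 2.06, 5.04, 2.35, 19.7 and 17.6, and LGALS3, galectin 3, had 7.35, 21.2, 15.8, 58.6 and 45.0. OASL, another interferon-induced gene, joined IFIT3 and IFIT2 as the highest at 72 h, with 4.41, 11.9, 5.13, 31.2 and 41.3. None of the 6 was as high at 0 m, 30 m or 4 h as at 16 h or 72 h.

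The lowest H3K27ac changes at 16 h were at DBP, a clock-controlled transcription factor, with 16.2, 11.3, 14.3, 4.88 and 7.89, NR0B2 with NUDC, with 11.8, 14.4, 17.1, 3.61 and 9.21, RPS6KA4, SYCE2 and GATD1. At 72 h the lowest were DAND5, a secreted inhibitor of nodal signals, with 10.3, 11.7, 14.1, 5.52 and 2.63, the chromatin remodeller CHD4 with 22.3, 17.8, 24.999, 9.13 and 6.32, and the Notch ligand JAG2 with 10.9, 13.3, 12.8, 5.52 and 3.42. The 16 h change of RPS6KA4, −1.50, had an interval from −2.29 to −0.75.

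In H3K4me3 the highest changes at 16 h after TMPRSS2 and KLK3 were at SPRY2, an inhibitor of receptor tyrosine kinase signals, ALG13 and ACSL3, an androgen-induced fatty acid ligase. SPRY2 had 1.69, 5.47, 21.5, 6.57 and 5.77, with its highest value at 4 h. ALG13, of protein glycosylation, had 2.26, 7.17, 9.11, 7.73 and 4.67, and ACSL3 had 4.79, 8.88, 15.9, 14.1 and 5.77. The lowest at 16 h were CDKN2B, a cyclin-dependent kinase inhibitor, with 9.31, 6.83, 8.79, 4.64 and 7.42, ASS1, COA5 with UNC50, ALG10 and ABTB2, the last with a change of −0.92. At 72 h SPRY2, MAP4K4 and CHST11 were highest, at 1.77, 1.42 and 1.27. The lowest at 72 h were KIF24 with NUDT2, at 20.6, 23.6, 30.5, 16.2 and 6.32, the aminopeptidase gene NPEPPS at 7.33, 10.2, 11.2, 7.93 and 2.20, and PEX5, the import receptor of peroxisomes, at 13.0, 11.6, 11.9, 14.5 and 4.12. Each of these 3 had its lowest contact at 72 h.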

How the data were processed

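HiChIP of H3K27ac (2 replicates per time point) and H3K4me3 (1) was made in LNCaP cells at 5 time points. Per the labels, reads were trimmed with Trim Galore 0.5.0 and aligned to hg19 with HiC-Pro 3.1.0 and Bowtie2. The authors called loops per mark with FitHiChIP on merged read pairs of all time points (5 kb bins, peak to all, adjacent interactions merged), counted contacts per time point and scaled them by TMM within a mark. The deposited contact signal is 1 value per loop and time point; 100% of values were whole multiples of 1 read pair (tolerance 0.001). Whether both H3K27ac replicates entered a value is not given in the sources used here.

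From these values, mean contacts and log2 changes from 0 m were computed with exact 95% binomial (Clopper-Pearson) counting intervals (Python 3.11.15, numpy 2.4.6, pandas 2.3.3, scipy 1.17.1; figures with matplotlib 3.10.9). Starts are those of canonical transcripts of Gencode release 44 on GRCh37, and promoter sequences were read from that reference. Single loops called needed at least 50 read pairs over 5 time points and a change of at least 2-fold with 0.5 read pairs added. Genes were named as the 5 promoter loops with the most read pairs per mark, the 5 highest and lowest changes at 16 h and 3 at 72 h (at least 200 read pairs), and up to 4 genes per list with the most read pairs. Loops without a promoter, the second KLK loops and the androgen response element sites were picked after their values were seen. Some genes and sequences these rules pick are not reported here. The members and lists were chosen with earlier results of these data known. Alternatives were equal totals, medians, each mark's own loops, other promoter widths or starts, calls by counting interval and a ranking by 30 m and 4 h. The functions were tested on simulated data.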

Additional observations from a re-analysis of the deposited data

Results flagged for a closer look

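At 72 h the mean contact of the adjacent-bin loops moved in opposite directions in the 2 marks. Its log2 change from 0 m was 0.50 in H3K27ac and −0.27 in H3K4me3. With equal totals per table the values were 0.33 and −0.14. The marks were scaled apart and have 1 value per time point, so the difference between them was not tested. By anchor class the change was 0.60 and −0.32 in promoter-other loops and 0.43 and −0.48 in different-gene loops. In other-other loops, which are most of the members, it was 0.46 and −0.04, and the H3K4me3 value turned to a rise with equal totals. From the weakest to the strongest of the 5 classes of contact, the H3K4me3 change was 0.44, 0.29, 0.11, −0.19 and −0.37. The fall in H3K4me3 thus lay in the 2 strongest classes.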

How the results depend on the processing

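Of 80 alternative values for 40 results, 23 stayed close to the value given, 56 moved by more than the counting interval or by over 1.5 times, and 1 reversed: ranked by 30 m and 4 h, the weakest members had an H3K27ac change of 0.12 at 72 h against −0.03. With equal totals the log2 changes of the members were 0.19, 0.20, 0.44 and 0.33 in H3K27ac and 0.063, 0.11, 0.12 and −0.14 in H3K4me3. As medians over members they were 0.19, 0.28, 0.36 and 0.29, and 0.035, 0.19, 0.25 and −0.22. Over each mark's own loop set they were 0.28, 0.27, 0.72 and 0.53, and 0.13, 0.40, 0.25 and −0.33. In own sets the members' share of read pairs was at most 35.5% and at least 25.5% in H3K27ac, and 18.9% and 15.3% in H3K4me3.

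With equal totals 3349 members were called higher and 2480 lower in H3K27ac at 16 h. In H3K4me3 672 were called higher and 1115 lower at 4 h, and 201 lower at 16 h. Where the counting interval also had to leave out 1, lower calls in H3K27ac were 87 (0.353%, against 1.55% of all loops) at 4 h, 956 (3.87% against 3.93%) at 16 h and 756 (3.06% against 3.94%) at 72 h. Under that rule H3K4me3 had 103 (0.694% against 1.56%), 493 (3.32% against 2.55%) and 147 (0.990% against 1.10%) higher calls at 30 m, 16 h and 72 h, and 239 (1.61% against 1.40%), 35 (0.236% against 1.22%) and 400 (2.70% against 2.80%) lower calls.

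With whole bins as anchors, other-other loops were 67.8% of members, promoter-other 10.6%, same-gene 16.6% and different-gene 5.04%. With promoters of 1 kb on either side they were 85.0%, 14.5%, 0% and 0.521%. With the outermost start of each gene record, chosen after seeing the data, the first 3 shares were 71.7%, 21.0% and 4.65%. These moves follow from how each alternative is built.

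No paired analysis was possible because the deposited tables hold 1 value per mark and time point, with no replicate columns and no test. For the same reason no replicate was left out. A value of 1 read pair is worth 0.0792 to 0.342 units of contact, so counting error is large in weak single loops, and a difference between cultures cannot be told apart from one between time points. In bin pairs this short, a stronger mark at a bin and more contact between the bins cannot be told apart either.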

Other observations

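Since IFIT3, IFIT2 and OASL came up among the highest H3K27ac changes, a list of 40 interferon-induced genes was compiled after those values were seen, so it includes genes that prompted it and supports nothing about the direction. Of the 40 genes 35 had some loop and 23 had an adjacent-bin loop, 26 in all. Among the 24 loops that passed the read pair minimum, 5, 2, 15 and 16 were called higher in H3K27ac at 30 m, 4 h, 16 h and 72 h, and 0 were called lower at any of these times. Of all promoter loops that passed, 11.5%, 5.00%, 22.2% and 18.2% were called higher at these times and 1.01%, 0.470%, 5.07% and 3.72% lower. Their mean H3K27ac contact was 8.35 at 0 m, 20.9 at 16 h and 23.8 at 72 h. In H3K4me3 the log2 change of their mean was −0.06, 0.35, 0.29 and −0.36.

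OAS1, which makes the activator of RNase L, had an H3K27ac contact of 5.29, 8.10, 3.42, 21.7 and 28.7. RIGI, a sensor of viral RNA, had 6.17, 11.9, 3.85, 22.9 and 26.1, and RSAD2, the antiviral enzyme viperin, had 10.3, 11.9, 10.7, 27.2 and 34.5. These 3 loops were higher at 16 h and 72 h than at each earlier time. ISG15, a ubiquitin-like modifier, had 40.0, 82.2, 53.6, 108 and 117. STAT2, which carries the interferon signal to the nucleus, had 17.6, 33.8, 18.0, 47.8 and 47.4. IRF9, the DNA-binding partner of STAT2, was below 0 m at 16 h and 72 h with 9.99, 8.28, 12.2, 5.31 and 6.58, and IFI35 had 24.1, 35.8, 34.0, 23.6 and 21.8.

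Among different-gene loops, 126 joined divergent genes, 115 genes on the same strand and 23 convergent genes, and 502 had more than 1 start at an anchor. Their H3K27ac changes at 16 h were 0.47, 0.54, 0.46 and 0.58 in that order. A second adjacent-bin loop of KLK3 had an H3K27ac contact of 30.6, 50.2, 89.7, 96.0 and 32.9, and one at KLK2 48.5, 51.3, 95.9, 93.4 and 38.7, both highest at 4 h or 16 h. The members without another loop at their anchors had an H3K4me3 change of 0.53 (0.44 to 0.62) at 16 h and 0.55 (0.46 to 0.64) at 72 h, from a mean contact of 0.631 at 0 m.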
